A study of Homo sapiens with 6 samples.

Results

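The interferon regulatory factor (IRF) family was examined in the RNA-SEQ data of Nalm6 cells treated with THZ1. The members were the 8 IRF genes IRF1, IRF2, IRF3, IRF4, IRF5, IRF7, IRF8 and IRF9, found by their symbols in the deposited expression table and by their Ensembl identifiers in the table of raw counts. They are 8 of the 57905 genes counted, and all 8 were among the 16622 genes with enough counts to be tested. Nalm6 is an established human line of leukemic B cell precursors, and the drug THZ1 blocks CDK7 covalently, a kinase that phosphorylates the tail of RNA polymerase II. The groups were 3 libraries of Nalm6 cells that received the solvent DMSO and 3 libraries of Nalm6 cells that received 500 nM of THZ1, all for 24 h. Both groups come from this single line, and the labels do not say whether the 3 libraries of a group were separate cultures, so the p-values measure the spread between these libraries, which may be technical.

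IRF proteins are transcription factors that share a DNA-binding domain at the amino end, by which they recognise repeats of the letters GAAA in the elements of interferon genes and interferon-stimulated genes. IRF3, IRF5 and IRF7 are held inactive until pattern receptors such as the Toll-like receptors signal to them, and IRF9 joins STAT proteins to carry the signal of type I interferon. IRF4 and IRF8 are the members of the lymphoid and myeloid lineages, where they bind DNA together with partners such as PU.1, and both act at the precursor stage of B cells.

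Each DMSO-treated library held 11015480 to 11164840 counts on genes and each THZ1-treated library held 7876402 to 8314306, so depth moved with the treatment. In CPM (counts scaled to library size by TMM), 3 counts amounted to 0.253 CPM or less with DMSO and 0.415 CPM or less with THZ1, a floor that covers counting error only. The 13 markers of B cell precursors were all present, and their summed level was 4222 to 4351 CPM with DMSO and 2209.8 to 2279 CPM with THZ1. The summed level of 6 T cell markers was at most 1.52 CPM in any library, with CD3D, CD3E, CD8A and CD2 at or under 3 counts throughout. The 9 myeloid markers summed to 12.9 to 14.6 CPM with DMSO and 20.5 to 21.9 CPM with THZ1, with S100A8 and S100A9 at 0. Within this sum the markers moved in opposite directions, as CD14 rose from 0.636 ± 0.088 to 8.71 ± 1.10 CPM, CSF1R went from 2, 1 and 1 counts to 60, 39 and 37 counts, and CD33 fell from 9.57 ± 0.553 to 2.19 ± 0.734 CPM. The 5 markers of plasmacytoid dendritic cells, a cell type rich in IRF7 and IRF8, summed to 242 to 300.1 CPM and 301 to 312 CPM, mostly from TCF4, which B cell precursors also express and which was not called (264 ± 28.9 and 272 ± 7.14 CPM), while IL3RA rose from 6.92 ± 0.34 to 32.8 ± 2.62 CPM and CLEC4C was at 0. The 4 erythroid markers summed to at most 0.253 CPM and 3.81 CPM, with HBB and HBA1 at or under 3 counts throughout and ALAS2 at 1, 1 and 0 counts with DMSO and 25, 23 and 21 counts with THZ1. The part of these shifts in the results on the IRF genes was not tested, and in bulk RNA fewer cells of a type and less RNA per cell cannot be told apart.

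The promoters of 3 members are shown, that of IRF4 as the most abundant member, and those of IRF1 and IRF9 because they hold the same element. The table of RefSeq promoters (GRCh38.p14, a different build from that of the counts) held 5 of the 8 members, and the 250 bases before the start of IRF1, IRF4 and IRF9 are given 5′ to 3′ on the gene's own strand. Capitals mark a GAS element (TTCNNNGAA, the site of STAT dimers) in IRF1 and IRF9 and a TATA box (TATAAA) in IRF4. The windows are chr5:132490774-132491023 on the minus strand for IRF1, chr6:391502-391751 on the plus strand for IRF4 and chr14:24161015-24161264 on the plus strand for IRF9.
IRF1: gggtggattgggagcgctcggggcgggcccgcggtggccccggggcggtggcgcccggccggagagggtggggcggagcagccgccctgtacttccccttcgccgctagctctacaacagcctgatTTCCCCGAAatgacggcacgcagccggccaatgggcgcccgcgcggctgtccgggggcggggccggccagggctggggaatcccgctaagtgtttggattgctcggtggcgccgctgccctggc
IRF4: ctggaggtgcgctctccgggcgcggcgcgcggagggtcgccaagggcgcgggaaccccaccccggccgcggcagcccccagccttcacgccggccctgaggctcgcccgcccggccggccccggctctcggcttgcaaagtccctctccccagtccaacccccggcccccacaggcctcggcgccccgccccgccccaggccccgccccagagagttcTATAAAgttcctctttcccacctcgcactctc
IRF9: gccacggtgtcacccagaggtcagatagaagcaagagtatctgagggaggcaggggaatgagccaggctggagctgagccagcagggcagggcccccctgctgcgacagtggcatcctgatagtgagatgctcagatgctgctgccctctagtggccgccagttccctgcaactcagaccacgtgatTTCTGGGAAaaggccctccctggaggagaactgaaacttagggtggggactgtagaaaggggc
The GAS element lay at −124 to −116 from the start of IRF1 and at −63 to −55 from the start of IRF9, and the TATA box of IRF4 at −32 to −27. Over all 35116 promoters of 300 bases in the table, with both strands searched, 7.66% held the GAS letters and 11.5% held TATAAA. The letters of an IRF element, a pair of GAAA with 2 bases between them, were in 3.57% of all promoters and in none of the windows of IRF1, IRF4, IRF5, IRF8 and IRF9. One of the 4 start sites listed for IRF5 held TATAAA, at −188 to −183, and neither start site of IRF8 held any of the 3 motifs. The shown window of IRF4 was 76.0% G or C and that of IRF1 74.4%, against 59.6% for IRF9 and a median of 58.0% over all promoters. IRF2, IRF3 and IRF7 were not analysed here in this respect.

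With THZ1, 6 of the 8 IRF genes were higher (IRF3, IRF4, IRF5, IRF7, IRF8 and IRF9) and 2 were lower (IRF1 and IRF2) at an adjusted p-value below 0.05 (edgeR quasi-likelihood test, adjusted after Benjamini-Hochberg across the genes tested). In the same test, 43.5% of all genes tested were higher and 41.1% were lower, 84.5% in either direction, so a call by itself was common. The members' median log2 fold change was 1.22, against 0.03 over all genes tested. Of the 8, 4 were higher by a log2 fold change of at least 1.5 (IRF4, IRF5, IRF8 and IRF9), where 24.6% of all genes tested were, and 0 were lower by as much, where 12.9% were. Every member's DMSO-treated libraries lay apart from its THZ1-treated libraries in CPM, which was also the case for 84.7% of all genes tested. The filter on low counts asked for 3 libraries above 1.03 CPM, and IRF5 and IRF9 met it only through the THZ1-treated libraries, with 2 DMSO-treated libraries above it each. Without these, 4 of 6 members were higher and 2 lower, and their median was 0.68. Among those 6, only IRF4 (1.86) and IRF8 (1.82) rose past the limit of 1.5. The contrast of 4 in 8 with 24.6% thus rests in part on IRF5 and IRF9. In the deposited FPKM values, where IRF5 and IRF9 were not called, the members' median was 0.31 to 0.34. The median over all genes there was −0.18 to −0.15.

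**Figure D1:**
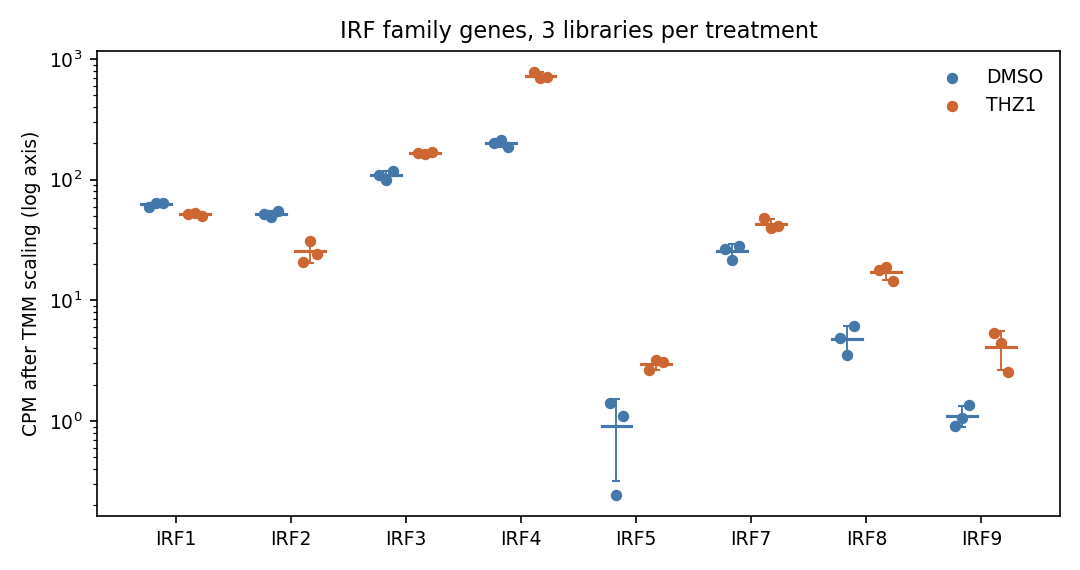
Level of each IRF gene in each library, in CPM after TMM scaling on a log axis, with DMSO-treated libraries in blue and THZ1-treated libraries in orange. Points are libraries, bars are the mean and whiskers the SD over 3 libraries. IRF4 lies highest in both groups, from 188 to 214 CPM with DMSO and from 699 to 783 CPM with THZ1, while IRF2 is the member that fell most, from 52.2 to 25.5 CPM on average. CPM values are not per transcript length, so heights are compared within a gene.

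IRF4, which drives the transition of precursor B cells and later plasma cell development, was the most abundant member and rose by 3.63-fold. Its protein-coding gene lies at chr6:391739-411443 on the plus strand (GRCh37). It had 201.2, 214 and 188 CPM in the DMSO-treated libraries and 783, 699 and 705 CPM in the THZ1-treated libraries. All 3 THZ1-treated libraries were therefore far above all 3 DMSO-treated libraries. The mean rose from 201 ± 13.4 to 729 ± 47.1 CPM (SD, n = 3 each), a log2 fold change of 1.86 (standard error, SE, 0.07, with an edgeR adjusted p = 6.6e-21). This held in all 16 alternative ways of processing, with log2 fold changes from 1.61 to 2.05. Raw reads rose as well, from 2224 to 2616 counts per library to 5051 to 5958 counts, although the THZ1-treated libraries were shallower. Reads are a share of the RNA sequenced in a library, so here and for the other genes a rise or fall is relative to the other transcripts. The amount of RNA per cell was not measured here.

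IRF8, the closest relative of IRF4 in the family and a factor of both myeloid and B cell development, rose by 3.54-fold from a much lower level. The gene lies at chr16:85932722-85956212 on the plus strand. It had 4.88, 3.52 and 6.08 CPM with DMSO and 17.9, 19.0 and 14.4 CPM with THZ1. The lowest THZ1-treated library was more abundant in IRF8 than the highest DMSO-treated library. The mean went from 4.83 ± 1.28 to 17.1 ± 2.36 CPM, with a log2 fold change of 1.82 (SE 0.18, edgeR adjusted p = 8e-11). In the deposited FPKM values the rise was smaller, with a log2 fold change as low as 0.96, though still called. The within-library log2 ratio of IRF4 to IRF8 counts was 5.40 ± 0.49 with DMSO and 5.42 ± 0.20 with THZ1. The difference of 0.02 was smaller than the spread between libraries (two-sided exact permutation test, p = 1), and it ranged from −0.22 to 0.27 with 1 library left out. From FPKM values the same difference was 0.50 (exact permutation test, p = 0.3).

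IRF1 and IRF2, an activator and its antagonist at the same elements, were the members that fell. IRF2 lies at chr4:185306856-185395712 on the minus strand. It had 52.0, 49.1 and 55.4 CPM with DMSO and 20.9, 31.1 and 24.5 CPM with THZ1. Every THZ1-treated library was below every DMSO-treated library, and replicate 2 was the highest of the THZ1 group. The mean fell from 52.2 ± 3.13 to 25.5 ± 5.20 CPM, a log2 fold change of −1.03 (SE 0.11, edgeR adjusted p = 4.5e-10), and −1.28 to −0.84 over the alternatives. IRF1 lies at chr5:131776132-131844411 on the minus strand. It had 59.9, 63.6 and 64.3 CPM with DMSO and 51.5, 53.2 and 50.1 CPM with THZ1. The groups did not overlap, but the gap was small. The mean of IRF1 went from 62.6 ± 2.34 to 51.6 ± 1.51 CPM, with a log2 fold change of −0.28 (SE 0.08, edgeR adjusted p = 0.0029). This call was lost with upper quartile factors, where the log2 fold change was −0.09 (adjusted p = 0.34), and with genes of at least 10 counts in every library, where it was −0.15 (adjusted p = 0.1), in the same edgeR test. The log2 ratio of IRF1 to IRF2 counts within a library does not depend on scaling, and it was 0.20, 0.37 and 0.22 with DMSO and 1.30, 0.77 and 1.03 with THZ1. The 3 ratios with THZ1 were all above those with DMSO, a difference of 0.77 with a two-sided exact permutation p = 0.1, the smallest that 3 libraries against 3 allow (0.15 after Benjamini-Hochberg adjustment over 3 ratios).

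IRF3 and IRF7, which the kinase TBK1 phosphorylates in the response to viral nucleic acid, rose moderately. IRF3 lies at chr19:50162826-50169132 on the minus strand. It had 110.5, 100.2 and 118.8 CPM with DMSO and 167.7, 163.2 and 170.3 CPM with THZ1. The THZ1-treated libraries were close to each other and all above the DMSO-treated libraries. The mean rose from 109.8 ± 9.31 to 167 ± 3.59 CPM, a log2 fold change of 0.61 (SE 0.07, edgeR adjusted p = 6.7e-09). IRF7, a member that interferon itself induces, lies at chr11:612553-615983 on the minus strand. It had 26.9, 21.6 and 28.4 CPM with DMSO and 48.3, 39.7 and 41.4 CPM with THZ1. Again no library of one treatment fell within the range of the other. The mean of IRF7 rose from 25.6 ± 3.57 to 43.1 ± 4.51 CPM, a log2 fold change of 0.75 (SE 0.11, edgeR adjusted p = 1.9e-07). Over the alternatives both genes kept their call, with log2 fold changes of 0.36 to 0.80 for IRF3 and 0.51 to 0.95 for IRF7. The log2 ratio of IRF3 to IRF7 went from 2.11 ± 0.095 to 1.96 ± 0.14, a difference of −0.15 (two-sided exact permutation test, p = 0.1, adjusted 0.15). It was −0.07 without THZ1 replicate 1 and −0.10 without DMSO replicate 2 (exact permutation test, p = 0.5 each).

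IRF5 and IRF9 were near the limit of detection, and their calls rested on few reads. IRF5, a mediator of Toll-like receptor signals, lies at chr7:128577511-128590092 on the plus strand. It had 17, 3 and 13 counts with DMSO and 20, 23 and 23 counts with THZ1. DMSO replicate 2 was far below the other libraries. In CPM the mean went from 0.916 ± 0.601 to 2.96 ± 0.293, with a log2 fold change of 1.68 (SE 0.39, edgeR adjusted p = 0.0002), and without DMSO replicate 2 the log2 fold change was 1.21 (edgeR adjusted p = 0.0027). In the deposited FPKM values IRF5 pointed the other way, with 1.54, 0.693 and 1.38 FPKM with DMSO and 0.676, 0.967 and 0.914 FPKM with THZ1. These overlap, and limma on log2(FPKM + 1) gave a log2 fold change of −0.23 (adjusted p = 0.26). IRF9, the DNA-binding subunit of a complex with STAT proteins, lies at chr14:24630443-24637252 on the plus strand. It had 11, 13 and 16 counts with DMSO and 41, 32 and 19 counts with THZ1. The lowest THZ1-treated library, replicate 3, was just above the DMSO group in counts. The mean of IRF9 went from 1.11 ± 0.223 to 4.12 ± 1.45 CPM, with a log2 fold change of 1.88 (SE 0.33, edgeR adjusted p = 5.2e-06). In FPKM, IRF9 had 1.35, 1.39 and 1.79 with DMSO and 2.70, 2.07 and 0.992 with THZ1, which overlap, and limma on log2(FPKM + 1) gave 0.17 (adjusted p = 0.52). So for these genes the count table and the expression table did not give the same answer.

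**Figure D2:**
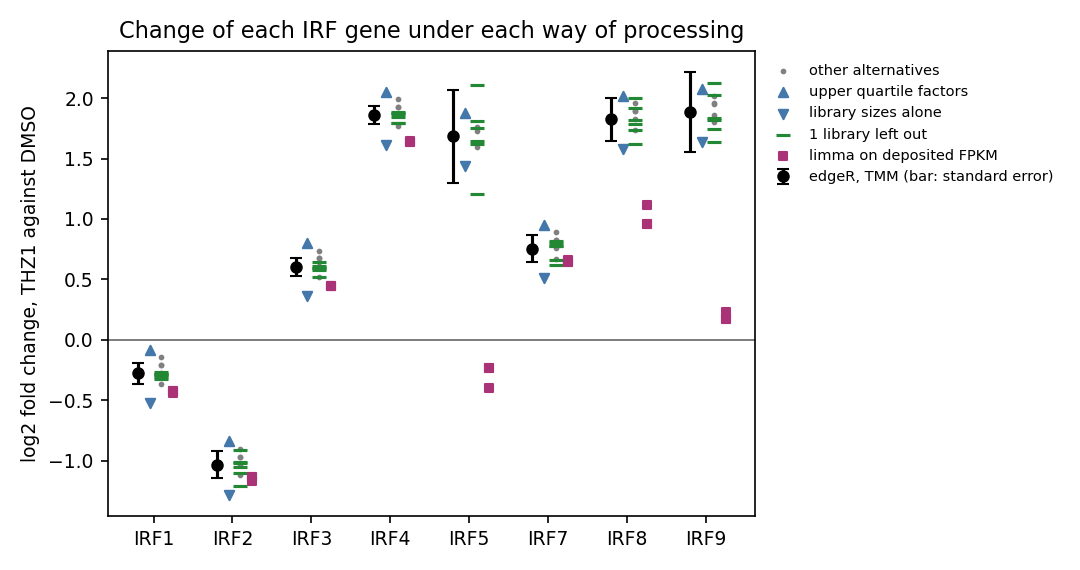
Log2 fold change of THZ1 against DMSO for each IRF gene. The black point is edgeR with TMM scaling and its bar the standard error, and the other symbols are the alternatives, each library left out (green), upper quartile factors and library sizes alone (blue triangles), limma on the deposited FPKM (purple squares) and the rest (grey). IRF2, IRF3, IRF4, IRF7 and IRF8 keep their side of 0 throughout with a call, IRF1 comes as close as −0.09, IRF5 spans −0.40 to 2.11 and IRF9 spans 0.17 to 2.13.

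Compared per transcript length, in the deposited values taken back to FPKM, IRF4 came first in both groups and its lead widened. With DMSO the order was IRF4 at 97.2 ± 10.3 FPKM, IRF3 at 81.95 ± 4.41, IRF2 at 47.1 ± 2.09, IRF7 at 27.4 ± 3.76, IRF1 at 22.7 ± 0.856, IRF8 at 3.74 ± 0.917, IRF9 at 1.51 ± 0.241 and IRF5 at 1.20 ± 0.449 FPKM (SD, n = 3). The ranges of neighbours in this order over the DMSO-treated libraries did not overlap, except those of IRF7 and IRF1, and of IRF9 and IRF5. With THZ1 the order was IRF4 at 302.6 ± 14.0 FPKM, IRF3 at 112 ± 2.09, IRF7 at 43.1 ± 4.32, IRF2 at 21.2 ± 4.44, IRF1 at 16.7 ± 0.437, IRF8 at 8.15 ± 1.37, IRF9 at 1.92 ± 0.863 and IRF5 at 0.852 ± 0.155 FPKM, with no overlap between neighbours. IRF2 and IRF7 thus exchanged their places. The summed level of the 8 genes went from 283 ± 2.20 to 506 ± 16.4 FPKM. Of this sum, IRF4 made up 34.4% ± 3.82 with DMSO and 59.8% ± 0.849 with THZ1. The share of IRF2 went from 16.7% ± 0.661 to 4.204% ± 0.944, that of IRF1 from 8.03% ± 0.34 to 3.29% ± 0.106, and that of IRF3 from 29.0% ± 1.39 to 22.1% ± 0.927. A share describes the make-up of the sum, and IRF3 lost share although its own level was higher. These levels rest on a table in which libraries of one treatment have nearly the same distribution of values, a step that the methods do not describe, so the spread within a treatment may be too small there.

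**Figure D3:**
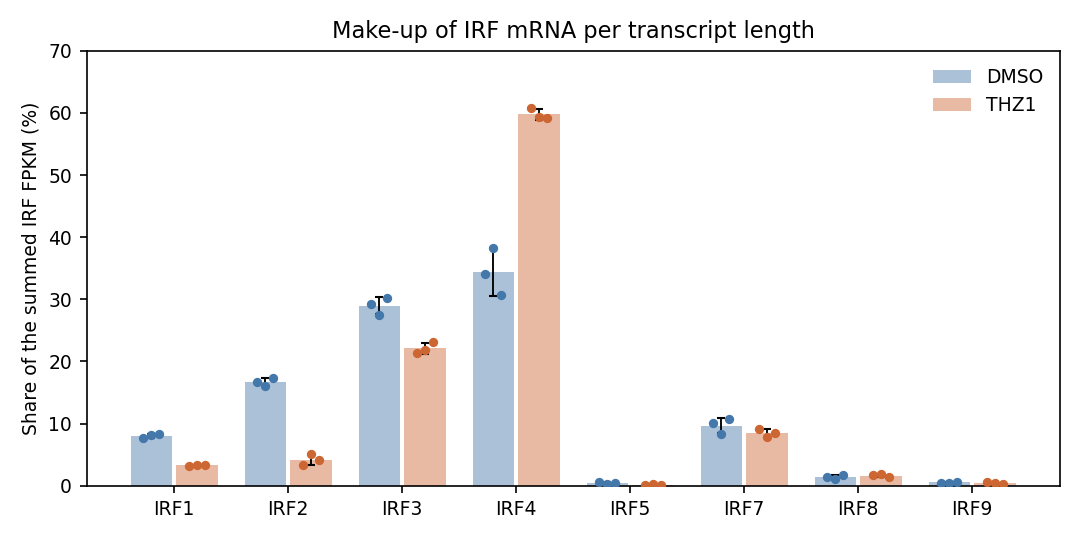
Share of each IRF gene in the summed FPKM of the 8 IRF genes, in percent, per treatment. Bars are means over 3 libraries, points are libraries and whiskers are the SD. The IRF4 bar grows from 34.4% to 59.8%, while the bars of IRF1, IRF2 and IRF3 shrink and those of IRF5, IRF8 and IRF9 stay below 2% in both groups.

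Several members share their locus with other genes, and at IRF2 the neighbouring non-coding genes moved against it. IRF2-DT, a long non-coding RNA at chr4:185395956-185398458 on the opposite strand, starts 244 bases from the start of IRF2. It had 39, 44 and 40 counts with DMSO and 177, 162 and 160 counts with THZ1. In all 3 THZ1-treated libraries it was several times more abundant than in any DMSO-treated library. The mean of IRF2-DT rose from 3.40 ± 0.192 to 22.4 ± 0.944 CPM, a log2 fold change of 2.71 (SE 0.16, edgeR adjusted p = 3.3e-16), and 2.07 to 2.90 over the alternatives. The log2 ratio of IRF2 to IRF2-DT counts within a library was 3.99, 3.75 and 4.02 with DMSO and −0.15, 0.47 and 0.19 with THZ1, so the gene pair went from a large excess of IRF2 to about equal counts. ENSG00000270426, a non-coding gene at chr4:185393078-185393763 on the same strand as IRF2 and within its span, shares no exon bases with it. It had 14, 13 and 10 counts with DMSO and 50, 36 and 42 counts with THZ1. Its log2 fold change was 2.47 (SE 0.29, edgeR adjusted p = 3.1e-09), and 1.88 to 2.66 over the alternatives. ENSG00000270426 was therefore higher within the span of a gene that was lower, and whether intronic reads of IRF2 add to it was not tested.

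The other overlaps affect how far reads can be assigned, since the strand setting of the counting is not given in the sources used here. IRF1-AS1 shares 2805 exon bases with IRF1 on the opposite strand, and it had 83, 99 and 92 counts with DMSO and 79, 71 and 89 counts with THZ1. In CPM IRF1-AS1 was 7.58 ± 0.646 and 10.7 ± 1.07, a log2 fold change of 0.50 (SE 0.17, edgeR adjusted p = 0.0069), against the fall of IRF1. This call was lost with library sizes alone and without THZ1 replicate 3. In the deposited FPKM values IRF1-AS1 was instead called lower, as IRF1 was, with a log2 fold change as low as −0.73. The log2 ratio of IRF1 to IRF1-AS1 counts within a library was 3.04 ± 0.077 with DMSO and 2.27 ± 0.18 with THZ1. BCL2L12, an apoptosis-related gene whose start lies 733 bases from that of IRF3 and which shares 734 exon bases with it on the opposite strand, measured 89.99 ± 10.7 CPM with DMSO against 89.8 ± 1.997 CPM with THZ1. BCL2L12 was not called (log2 fold change −0.00, SE 0.08, edgeR adjusted p = 0.97), and the log2 ratio of IRF3 to BCL2L12 counts was 0.23 to 0.33 with DMSO and 0.88 to 0.91 with THZ1. IRF3 therefore differed where its divergent neighbour was not called. ENSG00000259529, a protein-coding gene that shares 1544 exon bases with IRF9 on the same strand, had 4, 13 and 5 counts with DMSO and 32, 33 and 30 with THZ1. Its log2 fold change was 2.78 (SE 0.37, edgeR adjusted p = 3e-08), but it was as low as 0.17 in the deposited FPKM values (limma adjusted p up to 0.16). Reads of IRF9 and of ENSG00000259529 can only be separated as far as the counting allowed.

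**Figure D4:**
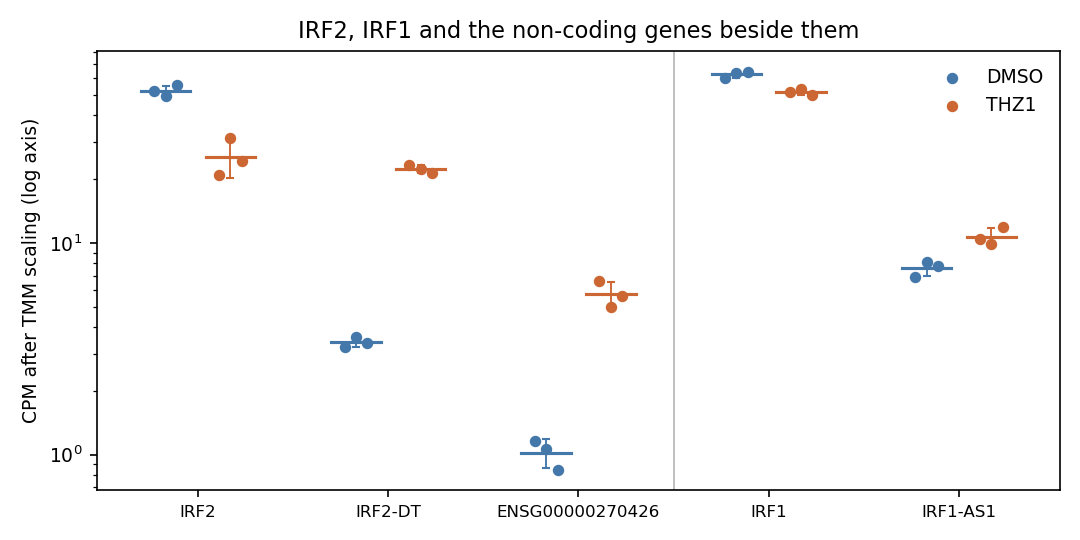
Level of IRF2, IRF1 and the non-coding genes beside them in each library, in CPM after TMM scaling on a log axis. Points are libraries, bars the mean and whiskers the SD over 3 libraries, with DMSO in blue and THZ1 in orange. IRF2 falls from 52.2 to 25.5 CPM while IRF2-DT rises from 3.40 to 22.4 CPM and ENSG00000270426 from 1.02 to 5.72 CPM. The changes of IRF1, from 62.6 to 51.6 CPM, and of IRF1-AS1, from 7.58 to 10.7 CPM, are smaller and also opposite in CPM. In the deposited FPKM values IRF1-AS1 was lower, as IRF1 was.

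Interferon genes, the classical targets of IRF3 and IRF7, were practically not detected. Of 22 listed genes, 19 had no count in any library. The other 3 had counts in THZ1-treated libraries only, with 2 counts in all for IFNK, 1 for IFNL1 and 1 for IFNL3. IFNB1 and IFNG were at 0 of the counts in each library, which allows up to 0.253 CPM with DMSO and up to 0.415 CPM with THZ1. None of the 22 was tested.

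Interferon-stimulated genes, the targets of IRF9 and its complex, were mostly lower with THZ1, while IRF3, IRF4, IRF7 and IRF8 were higher. Of 48 listed genes, 42 were tested, of which 31 were lower (73.8%, against 41.1% over all genes tested), 5 were higher (11.9%, against 43.5%) and 6 were not called. Their median log2 fold change was −1.28 and stayed between −1.90 and −1.09 over the alternatives. Of the 42, 18 were lower with a log2 fold change of −1.5 or below, where 12.9% of all genes tested were. The lowest were DDX60, an RNA helicase (from 5.78 ± 0.388 to 0.401 ± 0.353 CPM, log2 fold change −3.80, adjusted p = 1.4e-10), XAF1, a pro-apoptotic factor (from 37.5 ± 1.27 to 4.53 ± 0.58 CPM, −3.05, 7.9e-19), and MX2, an antiviral GTPase (from 10.8 ± 0.715 to 1.92 ± 0.364 CPM, −2.48, 1.3e-11), all by edgeR. The highest was IFITM3, which restricts virus entry, with a rise from 0.442 ± 0.123 to 6.47 ± 0.66 CPM and a log2 fold change of 3.83 (edgeR adjusted p = 3.8e-12). With DMSO, IFITM3 had 4, 7 and 5 counts, so it met the filter on low counts only through the THZ1-treated libraries. DDX60 met that filter only through the DMSO-treated libraries, with 2, 1 and 6 counts with THZ1. ISG15, a ubiquitin-like modifier, rose from 21.0 ± 3.65 to 37.9 ± 4.16 CPM, a log2 fold change of 0.85. ISG20, an exonuclease, had a log2 fold change of 0.95 in the counts but as low as −0.64 in the deposited FPKM values. The list thus held members in both directions, with the lower ones in the majority.

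Genes of the IRF1 and interferon-gamma axis, which include antigen processing and the guanylate-binding proteins, were also mainly lower. Of 35 listed genes, 25 were tested, of which 17 were lower (68.0%, against 41.1% over all genes tested), 4 were higher (16%, against 43.5%) and 4 were not called. The median log2 fold change was −0.75 (−1.31 to −0.56 over the alternatives). PSMB9, an immunoproteasome subunit, fell from 55.8 ± 6.35 to 4.63 ± 0.761 CPM, a log2 fold change of −3.59 (edgeR adjusted p = 1e-20). CIITA, the master activator of MHC class II genes, fell from 123 ± 7.18 to 20.7 ± 0.477 CPM, a log2 fold change of −2.57, and CASP1, the inflammatory caspase, by 3.52 on the log2 scale to 0.537 ± 0.261 CPM. In contrast SOCS1, the feedback inhibitor of JAK kinases, rose from 1.16 ± 0.589 to 70.6 ± 9.60 CPM, with a log2 fold change of 5.91 (edgeR adjusted p = 1.6e-23), higher than any other gene of these lists. SOCS1 met the filter on low counts only through the THZ1-treated libraries, with 20, 16 and 6 counts with DMSO. CASP1 met it only through the DMSO-treated libraries, with 6, 4 and 2 counts with THZ1. ICAM1, an adhesion molecule, rose by 1.22 on the log2 scale. B2M, the light chain of MHC class I, had a log2 fold change of 0.38, a call that neither library sizes alone nor limma on the FPKM values kept. Past a log2 fold change of 1.5 in size, SOCS1 was the 1 gene of this list that was higher, and 6 were lower, where 24.6% of all genes tested were higher and 12.9% lower.

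**Figure D5:**
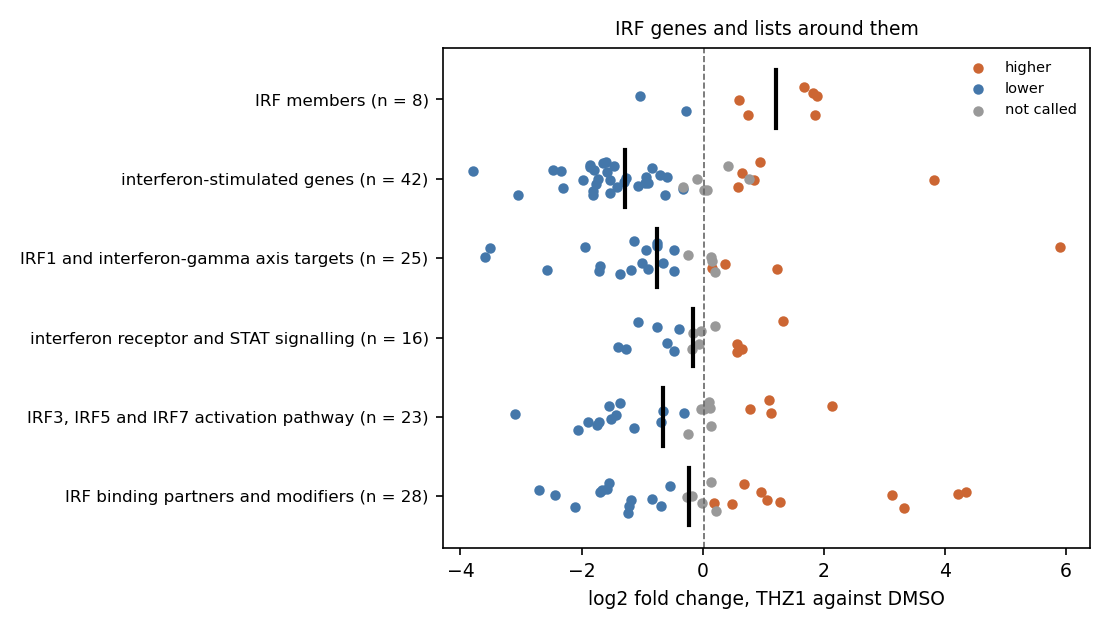
Log2 fold change of each tested gene in the IRF family and in 5 lists around it, with genes called higher in orange, lower in blue and not called in grey. Black bars are medians, and the dashed line is the median of all genes tested, 0.03. The IRF genes have a median of 1.22, while the medians of the lists run from −1.28 for interferon-stimulated genes to −0.17 for receptor and STAT signalling.

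Receptor and STAT signalling was mixed. All 16 listed genes were tested, of which 7 were lower (43.8%, near the 41.1% over all genes tested). A further 4 were higher (25%, against 43.5%) and 5 were not called. The median log2 fold change was −0.17, against 0.03 over all genes tested. With upper quartile factors it was 0.03, but the median of all genes also shifted, to 0.22. STAT2, a partner of IRF9, was not called, with 62.6 ± 2.10 and 61.7 ± 5.87 CPM (edgeR adjusted p = 0.84). The phosphatases PTPN11 and PTPN2 fell by 1.27 and by 1.07 on the log2 scale. IFNGR2, a chain of the interferon-gamma receptor, STAT3 and the kinase JAK1 had log2 fold changes of 1.32, 0.66 and 0.57, and only the call of IFNGR2 was lost in the deposited FPKM values. IRF9 was thus higher in the counts where STAT2 was not called.

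The pathway that activates IRF3, IRF5 and IRF7 was more often lower than higher. Of 26 listed genes found in the count table, 23 were tested, of which 13 were lower (56.5%, against 41.1% over all genes tested), 4 were higher (17.4%, against 43.5%) and 6 were not called. The median log2 fold change was −0.65 (−1.01 to −0.34 over the alternatives). TLR3, a receptor for double-stranded RNA, fell by 3.10 on the log2 scale to 0.314 ± 0.204 CPM, under the 1.03 CPM of the filter on low counts. TRAF3, the ubiquitin ligase downstream of these receptors, fell from 52.1 ± 3.29 to 12.5 ± 1.28 CPM (log2 fold change −2.06, edgeR adjusted p = 4.2e-17), and RIGI, the cytosolic RNA sensor, fell by 1.89 on the log2 scale. MYD88, the adaptor of most Toll-like receptors, rose from 54.5 ± 3.47 to 239.7 ± 13.3 CPM, a log2 fold change of 2.14 (edgeR adjusted p = 7.3e-22). The adaptor TICAM1 and the RNA sensor DHX58 rose by 1.13 and 1.10 on the log2 scale. TBK1, the kinase of IRF3 and IRF7, was not called, with 37.1 ± 4.56 and 37.7 ± 2.63 CPM (edgeR adjusted p = 0.84). MAVS, the adaptor of RIGI, was chosen after its value was seen and fell by 1.13, so the adaptors did not move together.

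Proteins that bind or modify IRF factors moved in both directions. Of 30 listed genes, 28 were tested, of which 13 were lower (46.4%) and 10 were higher (35.7%), shares near the 41.1% and 43.5% over all genes tested. The other 5 were not called, and the median log2 fold change was −0.22 (−0.80 to −0.03 over the alternatives). The AP-1 subunits JUN and JUNB, which bind composite elements with BATF proteins and IRF4 or IRF8, rose from 7.05 ± 1.01 to 145 ± 11.6 CPM and from 47.5 ± 3.52 to 881 ± 60.4 CPM, with log2 fold changes of 4.36 and 4.21 (adjusted p = 6e-26 and 1.5e-28 by edgeR). IRF2BPL, a relative of the IRF2-binding proteins, rose from 32.7 ± 4.21 to 328 ± 4.39 CPM, a log2 fold change of 3.33 (edgeR adjusted p = 1.1e-25). BATF3, a partner of IRF4 and IRF8 in dendritic cells, fell by 2.44 on the log2 scale to 0.945 ± 0.289 CPM. FKBP4, an immunophilin that binds IRF4, fell by 2.70 to 0.853 ± 0.161 CPM, and NMI, an interferon-induced protein that binds STAT factors, fell by 2.11 from 55.1 ± 0.998 CPM. With THZ1 the means of BATF3 and FKBP4 were under the 1.03 CPM of the filter on low counts. Among the partners of IRF4 in B cells, named after their values were seen, SPI1, which encodes PU.1, had 59.5 ± 3.94 and 68.0 ± 2.83 CPM (log2 fold change 0.19, edgeR adjusted p = 0.032). For SPI1 this call was lost with each library left out except DMSO replicate 3, without the filter, and in the FPKM values (0.03), and the sign turned with library sizes alone (−0.05, edgeR adjusted p = 0.54). IKZF1, which encodes Ikaros, fell from 149.7 ± 18.2 to 46.4 ± 1.49 CPM (log2 fold change −1.69). PRDM1, a target of IRF4 in plasma cells that was likewise chosen after its value was seen, rose from 1.13 ± 0.252 to 10.01 ± 0.73 CPM (log2 fold change 3.13, edgeR adjusted p = 5e-13), with a log2 fold change as low as 0.82 in the FPKM values.

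The genes whose pattern was most like that of a member were found by the Euclidean distance between gene-centred log2 CPM values over the 6 libraries, among 16195 genes. Nearest to IRF4 were CELF1, an RNA-binding splicing regulator, and CLK1, a kinase of splicing factors, at distances of 0.0589 and 0.101. Nearest to IRF8 were SLA2 and SCNN1D at 0.291 and 0.315, to IRF3 CCDC137 and USF2 at 0.0321 and 0.0586, and to IRF7 SDHAF4 and CCDC28B at 0.0718 and 0.101. Nearest to IRF1 were ATP6V1H and TMED5 at 0.0627 and 0.0646, and to IRF2 C12orf75 and CENPH at 0.152 and 0.159. IRF9 had RAB6B and EPX at 0.427 and 0.439, whereas IRF5 had no gene closer than 0.644. The number of genes within a distance of 0.5 was 2584 for IRF1, 1537 for IRF3, 927 for IRF7, 874 for IRF2, 503 for IRF4, 105 for IRF8, 13 for IRF9 and 0 for IRF5. With 6 libraries a near pattern was thus common for several members. These numbers did not follow abundance, as IRF4 had fewer than IRF1, IRF2, IRF3 and IRF7. Because the distance was taken over both treatments, genes that are near must have a similar log2 fold change. The values of 1.83 for CELF1 and 1.87 for CLK1, beside 1.86 for IRF4, are therefore no separate observation.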

How the data were processed

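RNA was isolated with TRIzol, and per the labels and the methods the authors mapped filtered reads to GRCh37 with STAR and counted them per gene with htseq-count. The annotation and the strand setting are not given in the sources used here. The deposited raw counts of 57905 genes were used without change. The authors also deposited log2 values of FPKM from RSEM for 16730 genes, which were read as log2(FPKM + 1). The p-values, FDR and fold changes that the authors deposited beside them hold the authors' own comparison and were not used.

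Counts were filtered with filterByExpr (minimum count 10, minimum total 15), scaled by TMM and tested with edgeR's quasi-likelihood test, two-sided, with Benjamini-Hochberg adjustment over 16622 genes (threshold 0.05), and standard errors (SE) were taken from its F statistic. CPM values follow TMM scaling. With upper quartile factors the median log2 fold change of all genes shifted by 0.19, and with library sizes alone by −0.25. Ratios of counts within a library (0.5 added to each) were compared by exact permutation. Replicates differed by more than sampling noise (chi-square per gene 1.79 to 9.53) and were each kept.

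The members and the lists, which were written from general knowledge, were chosen with earlier results of these data known. The rule for named genes took all members, genes that overlap them or start close by on the other strand, the 3 highest and 3 lowest called genes of each list averaging 1 CPM or more, and the 2 nearest patterns. Coordinates and symbols came from GENCODE 44 on GRCh37 and promoters from RefSeq. IKBKE and TRAC were not analysed here, and some genes are not reported here. As alternatives, DESeq2, library sizes alone, factors by RLE or by the upper quartile, other filters, a replicate block, limma on the FPKM values and the omission of each library were tried. The edgeR step was tested on simulated data. Software was DESeq2 1.42.0, edgeR 4.0.16 and limma 3.58.1 in R 4.3.3, and scipy 1.17.1 and pandas 2.3.3 in Python 3.11.15.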

Additional observations from a re-analysis of the deposited data

How the results depend on the processing

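IRF2, IRF3, IRF4, IRF7 and IRF8 kept their direction and call under all 16 alternatives. IRF1 stayed lower, but its call was lost with upper quartile factors (−0.09) and with genes of at least 10 counts in every library (−0.15), so that 1 member was lower under each. The IRF5 log2 fold change reversed with limma on the FPKM values, to −0.23 with a pseudocount of 1, to −0.40 with 0.1, and to −0.23 with a mean FPKM of at least 1, and IRF5 was not tested with at least 10 counts in every library. IRF9 was 0.17, 0.23 and 0.17 there and not called. The causes were not tested. With a log2 fold change of at least 1.5, 0 members were lower. At that limit 1 of the interferon-stimulated genes was higher and 18 were lower, 1 gene of the IRF1 and interferon-gamma axis was higher and 6 lower, 0 of receptor and STAT signalling were higher and 0 lower, 1 of the activation pathway was higher and 7 lower, and 4 of the binding partners were higher and 7 lower, where 24.6% of all genes tested were higher and 12.9% lower. The genes of the IRF1 and interferon-gamma axis that were higher numbered 7 with RLE factors, 7 with upper quartile factors, 2 with library sizes alone, and 2 with each limma fit. With library sizes alone, 11 genes of receptor and STAT signalling were lower, and with upper quartile factors 7 of the activation pathway were higher. Of all calls, 51.4% were higher with TMM, 57.2% with upper quartile factors and 44.2% with library sizes alone.

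With 1 library left out, the log2 fold change ranged from −0.33 to −0.27 for IRF1, −1.21 to −0.91 for IRF2, 0.52 to 0.65 for IRF3, 1.79 to 1.88 for IRF4, 1.21 to 2.11 for IRF5, 0.62 to 0.81 for IRF7, 1.62 to 2.001 for IRF8 and 1.63 to 2.13 for IRF9, each still called. The difference in the log2 ratio ranged from −0.22 to 0.27 for IRF4 to IRF8, which had no direction (0.50 from FPKM values), from 0.64 to 0.90 for IRF1 to IRF2, and from −0.19 to −0.07 for IRF3 to IRF7. The replicate numbers share only a number, as the deviations of libraries with the same number correlated by −0.0040, 0.00097 and 0.0206. With the replicate block, the log2 fold change of IRF4 was 1.86, and 6 members were higher and 2 lower. The depth of 7876402 to 11164840 counts leaves IRF5 and IRF9 with at most 41 counts in a library, so their size of change is poorly fixed.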

Other observations

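The small RNA genes within the spans of IRF1 and IRF2 were not tested, with 0 to 9 counts per library for the Y RNA gene within IRF1 and at most 1 count for SNORD79 within IRF2.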
